A study of Nothobranchius furzeri with 12 samples.

Results

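Of the tail fin transcripts measured in the turquoise killifish, an African fish of seasonal pools, 18 of 20788 entries are described here. They were higher in red tails than in each other group of the study. These genes were chosen by their own values. On log2(normalized reads + 1), the mean of the red tails had to exceed the mean of each of the other 3 groups by at least 2. The lowest red library also had to lie above the highest of the other 9, and yellow tails had to lie less than 1 above females of their own strain. Of the 15170 entries with a mean of at least 10 over the 12 libraries, 38 met the first condition, 33 of these met the second and 23 also met the third. A further 5 entries that met all the conditions were set aside by identifier and are not described here. The excess in red tails is therefore how the genes were found: it is given as a description and was not tested. With yellow and red tails exchanged, and the female groups with them, the same conditions held for 32 entries. None was set aside there, so the like count for red tails is 23.

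RNA came from the coloured region of the fin, or the equivalent region of females, with 3 libraries per group. The 4 groups were red tails from MZCS002 fish, yellow tails from GRZ-BELL fish, and female tails of both these strains, and the labels name no treatment, transgene or age. The sex of the fish with red or yellow tails is not stated. Since each colour came from its own strain, tail colour cannot be told apart from strain, and against females of the same strain it cannot be told apart from sex. A number in the sample descriptions also differs between the strains and is the same within each. Its meaning is not given, so it too cannot be told apart from strain. The design text calls the 3 libraries of a group biological replicates, and spread and tests below rest on these 3. Killifish tails are coloured by pigment cells of neural crest origin: xanthophores and erythrophores hold yellow to red pteridines and carotenoids, melanophores hold melanin, and iridophores hold reflecting guanine. A fin also holds epidermis, fin ray bone, blood, nerve and immune cells. In RNA from whole tissue, fewer cells of a type and less RNA per cell cannot be told apart.

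Recovered reads came to 5495553 to 17053983 per library, and the smallest library was MZCS002 female 2. There, 3 reads equalled 9.43 normalized reads, against 2.04 to 4.12 in the other 11 libraries, so a weak signal was more easily missed in it. Of the 18 genes, 8 had no read in MZCS002 female 2. The log2 values of this library also correlated least with those of its replicates, at 0.86 and 0.84. All other pairs of replicates ran from 0.93 to 0.96. No source used here gives the strand setting of the counting, so reads of overlapping or antisense genes could not be told apart. In the reference gene order, none of the 22 nearest neighbours of the 11 genes matched there overlapped its gene.

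Of the 18 genes, 10 carried a gene symbol, 1 had only a locus number, LOC107374445, and 7 had only a transcript identifier. All 18 passed the filter on low values, which their red libraries alone could carry them through. Most were weak: the median over the genes of the mean in red tails was 61.5 normalized reads, against 206 over all tested entries, and 11 of the 18 averaged under 100 in red tails. The red mean exceeded the yellow mean by 2.21 to 5.95 on the log2 scale, the mean of MZCS002 females by 2.12 to 5.95, and that of GRZ-BELL females by 2.05 to 5.95. The upper end in each case was asmt, whose difference depends on the 1 added before taking logs. By means of the log2 values, the highest group after red tails was MZCS002 females for 9 genes, yellow tails for 4 and GRZ-BELL females for 4. The remaining gene, asmt, had no read in any other group.

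**Figure D1:**
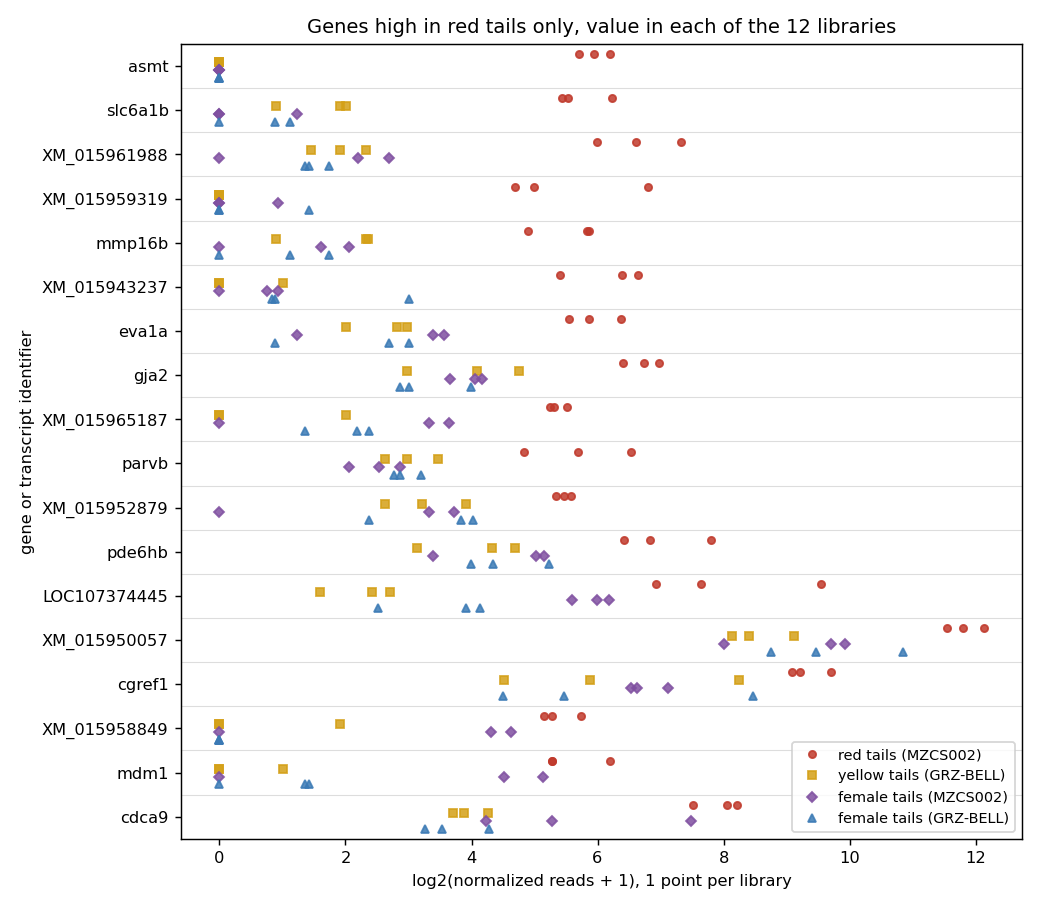
Value of each of the 18 genes in each of the 12 libraries, as log2(normalized reads + 1) on the horizontal axis, with 1 point per library, coloured by group, and the genes sorted by the gap between the lowest red library and the highest other one. By the conditions, the 3 red points lie to the right of all others for every gene, by a wide gap for asmt at the top and by 0.037 for cdca9 at the bottom.

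The widest gap belonged to asmt (XM_015966702). Its product, acetylserotonin O-methyltransferase, carries out the last step of melatonin synthesis, and melatonin gathers pigment granules in melanophores of fish. The level of asmt was 60.3, 51.4 and 72.4 normalized reads in red tails 1, 2 and 3, against 0 in all 3 yellow tails, all 3 MZCS002 females and all 3 GRZ-BELL females. This came from 230 reads in red tails and no read in the other 9 libraries. Against a floor of 3 reads per library, the red mean of 61.3 ± 10.53 (SD, n = 3) was at least 18.9-fold higher than in yellow tails. The same bound was at least 12.99-fold against MZCS002 females and at least 22.0-fold against GRZ-BELL females.

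Of 11 other listed genes of melatonin synthesis and its receptors, 7 were in the table. They were picked after asmt was seen, so nothing is concluded from them. The paralog asmt2 had 115, 95.6 and 149 normalized reads in red tails, against 254, 193 and 290.0 in yellow tails. In females asmt2 had 167, 185 and 128 in MZCS002 and 438, 437 and 254 in GRZ-BELL. Its red values lay below all yellow and GRZ-BELL female values and overlapped those of MZCS002 females. The acetyltransferase gene aanat1, which acts one step before, had 6.89, 11.2 and 21.1 normalized reads in red tails, against 48.2, 23.4 and 30.2 in yellow tails, also with no overlap. In females aanat1 had 14.4, 12.6 and 8.84 in MZCS002 and 20.0, 24.2 and 16.4 in GRZ-BELL. For red against yellow tails, limma called neither asmt2 (log2 difference -1.04 ± 0.30, limma adjusted p = 0.052) nor aanat1 (-1.38 ± 0.49, limma adjusted p = 0.10). The share of all entries without overlap was not taken. A second acetyltransferase gene, aanat2, had 6.03, 8.83 and 14.3 in red tails, 8.03, 3.47 and 8.25 in yellow tails, 3.59, 25.1 and 3.40 in MZCS002 females and 3.52, 5.83 and 2.35 in GRZ-BELL females. Its red mean of the log2 values was the highest of the 4 groups, but the red range overlapped that of yellow tails and of MZCS002 females. The synthesis genes tph1a and ddc and the receptor genes mtnr1aa and mtnr1bb had at most 8.33 normalized reads in any library.

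The second gene by gap with a symbol was slc6a1b (XM_015959083), which encodes a transporter that takes up the inhibitory transmitter GABA. It had 42.2, 73.9 and 45.2 normalized reads in red tails, 3.01, 0.868 and 2.75 in yellow tails, 0, 0 and 1.36 in MZCS002 females and 1.17, 0.833 and 0 in GRZ-BELL females. Every red library thus stood more than 3 log2 units above every other library. The red mean was 24.3 times the yellow mean, a log2 difference of 4.13 ± 0.74 (SE, limma). Only 2 reads were found in MZCS002 females, against 201 in red tails, a ratio of means of 119 with a 95% counting interval of 21.4 to 650. Only 2 were found in GRZ-BELL females, a ratio of 80.3 with an interval of 24.5 to 746. Such intervals come from the summed reads, so they are not centred on the ratio of means. With the floors they cover counting error only, since reads copied by PCR are not independent molecules. The genes described here were chosen for their red excess, so neither the intervals nor the floors test it.

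Its paralog slc6a1a was near the limit of detection, with 0 to 2.41 normalized reads in red tails, 0 to 2.01 in yellow tails, 0.680 to 7.19 in MZCS002 females and 3.52 to 13.3 in GRZ-BELL females. The related transporter gene slc6a13 was measured in all libraries, with 206 to 292 in red tails, 313 to 531 in yellow tails, 145 to 381 in MZCS002 females and 221 to 451 in GRZ-BELL females. Another listed GABA gene, gad2, had 95.6 to 125 in red tails and 25.2 to 50.2 in yellow tails. In females gad2 had 28.3 to 89.0 in MZCS002 and 84.4 to 98.7 in GRZ-BELL. With limma, gad2 was higher in red than in yellow tails (log2 difference 1.54 ± 0.43, adjusted p = 0.046). It was not called against MZCS002 females (0.89 ± 0.43, limma adjusted p = 0.24). The listed GABA genes were picked after slc6a1b was seen, and the limma results for gad2 were not recomputed in the alternatives. Of 6 other tested genes of the slc6a family, none met the conditions. Over all tested entries, limma at an adjusted p under 0.05 called 3.85% higher and 3.58% lower in red than in yellow tails, and 2.71% higher and 1.82% lower in red tails than in MZCS002 females. An unadjusted p under 0.05 was found for 24.8% of all tested entries in the first contrast and 22.0% in the second. None of the 6 genes was called by limma in either contrast, and an unadjusted p under 0.05 was found for 0 of 6 in the first and 1 of 6 in the second, counts too small to set apart from these shares.

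Genes of the matrix and of cell contacts among the 18 were mmp16b, gja2 and parvb. The gene mmp16b (XM_015956650) encodes a membrane-bound matrix metalloproteinase. Its level was 56.0, 57.0 and 28.7 normalized reads in red tails, 4.01, 0.868 and 4.12 in yellow tails, 0, 3.14 and 2.04 in MZCS002 females and 1.17, 0 and 2.35 in GRZ-BELL females. The highest library outside the red tails was yellow 3, and the log2 difference from yellow tails was 3.67 ± 0.81 (SE, limma). Of 11 other tested mmp genes none met the conditions. Their median log2 difference was 0.66 for red against yellow tails and 0.37 for red tails against MZCS002 females, with 3 and 4 of the 11 at an unadjusted p under 0.05 (24.8% and 22.0% of all entries). One of the 11, the collagenase gene mmp13b, was called higher in red than in yellow tails (log2 difference 3.94 ± 0.89, limma adjusted p = 0.019), a call lost without red 1, red 2, yellow 1 or yellow 2 (adjusted p from 0.052 to 0.093). Over all entries, 3.85% were called higher in red than in yellow tails. The gene mmp13b had 81.8, 71.5 and 76.9 normalized reads in red tails, against 2.01, 2.61 and 10.99 in yellow tails. In females it had 29.7, 59.7 and 4.08 in MZCS002 and 5.87, 6.66 and 0.782 in GRZ-BELL. Against MZCS002 females mmp13b was not called (log2 difference 1.88 ± 0.89, limma adjusted p = 0.24).

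The gene gja2 (XM_015961043) encodes a connexin, a protein of gap junctions, and in zebrafish connexins of pigment cells are needed for the stripe pattern. It had 83.5, 125 and 106 normalized reads in red tails, 16.1, 26.1 and 6.87 in yellow tails, 11.7, 15.7 and 16.99 in MZCS002 females and 7.05, 15.0 and 6.25 in GRZ-BELL females. The red libraries lay close together, with a coefficient of variation of 19.9%, and the other 3 groups overlapped each other. The red mean was 6.42 times the yellow mean, 7.08 times that of MZCS002 females and 11.1 times that of GRZ-BELL females. The 1 other tested gja gene did not meet the conditions. Its log2 difference was -1.90 for red against yellow tails, with an unadjusted limma p under 0.05 (24.8% of all entries). Against MZCS002 females the difference was 0.31, and limma called that gene in neither contrast.

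The gene parvb (XM_015963972) encodes beta-parvin, an adaptor that links integrins to actin together with integrin-linked kinase. It had 27.6, 91.5 and 50.5 normalized reads in red tails, 10.0, 5.21 and 6.87 in yellow tails, 6.29, 3.14 and 4.76 in MZCS002 females and 8.22, 5.83 and 6.25 in GRZ-BELL females. Red 2 was 3.32 times red 1, and even red 1 lay above all 9 other libraries. The log2 difference from yellow tails was 2.66 ± 0.55, that from MZCS002 females 3.20 ± 0.55 (SE, limma).

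A second parvin gene, parvaa, ran the other way. It encodes alpha-parvin, and it was singled out after its values were seen. The level of parvaa was 144, 194 and 220.2 normalized reads in red tails, 615, 628 and 511 in yellow tails, 386, 883 and 531 in MZCS002 females and 459, 602 and 584 in GRZ-BELL females. The 3 red libraries lay below the other 9. With limma, parvaa was lower in red than in yellow tails (log2 difference -1.66 ± 0.30, adjusted p = 0.0064) and lower in red tails than in MZCS002 females (-1.62 ± 0.30, adjusted p = 0.010). The second call was lost without red 1 (adjusted p = 0.051) and when only the 2 groups entered the fit (adjusted p = 0.13). Another parvin gene, parvg, lies next to parvb in the reference gene order and averaged 54.3 ± 7.02 normalized reads in red tails, 48.5 ± 23.1 in yellow tails, 66.7 ± 9.50 in MZCS002 females and 59.9 ± 18.997 in GRZ-BELL females (SD, n = 3 each). The partner gene ilk had 271 to 351 in red tails, 394 to 644 in yellow tails, 135 to 469 in MZCS002 females and 384 to 549 in GRZ-BELL females.

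The gene pde6hb (XM_015945320) encodes the inhibitory gamma subunit of the cone phosphodiesterase, an enzyme best known from the light response of the retina. It had 222, 112 and 84.4 normalized reads in red tails, 19.1, 7.82 and 24.7 in yellow tails, 31.4, 34.6 and 9.52 in MZCS002 females and 36.4, 19.2 and 14.9 in GRZ-BELL females. Its lowest red library lay 1.19 log2 units above the highest other one, and the other 3 groups overlapped. The catalytic partner gene of cones, pde6c, had 0.861 to 6.42 normalized reads in red tails, 1.00 to 6.87 in yellow tails, 4.49 to 15.7 in MZCS002 females and 3.91 to 4.70 in GRZ-BELL females. The cone transducin gene gnat2 likewise had 6.03 to 9.80 in red tails, 5.497 to 9.55 in yellow tails, 0 to 19.8 in MZCS002 females and 5.47 to 10.00 in GRZ-BELL females. Both overlapped between red tails and each other group. These partners were also picked after pde6hb was seen. Of 8 other tested pde genes none met the conditions, and limma called none for red against yellow tails or red tails against MZCS002 females, with 1 of 8 at an unadjusted p under 0.05 in each, against 24.8% and 22.0% of all entries.

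In mammals, the product of eva1a (XM_015952765) is a membrane protein of the endoplasmic reticulum and lysosome that acts in autophagy. It had 81.8, 57.0 and 46.0 normalized reads in red tails, 3.01, 6.08 and 6.87 in yellow tails, 10.8, 9.43 and 1.36 in MZCS002 females and 7.05, 0.833 and 5.47 in GRZ-BELL females. The red mean was 11.6 times the yellow mean, with a log2 difference of 3.33 ± 0.75 (SE, limma). The lowest red library lay 2.00 log2 units above the highest of the other 9.

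The gene cgref1 (XM_015952744) encodes a calcium-binding protein with EF hands, described in mammals as slowing cell growth. Its level was 541, 833 and 593 normalized reads in red tails, 58.2, 301.3 and 22.0 in yellow tails, 138, 97.4 and 91.1 in MZCS002 females and 43.5, 21.7 and 353 in GRZ-BELL females. Yellow 2 and GRZ-BELL female 3 stood high within their groups, though still below every red library. The log2 difference from yellow tails was 3.12 ± 0.94 (SE, limma), an error wider than for most of the genes. Without yellow 2, cgref1 still met all conditions, and without GRZ-BELL female 3 it did not.

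Both eva1a and cgref1 lie on the same chromosome of the reference assembly, with 13 annotated genes between them. Of these 13, 11 were in the table and 10 were tested, and none met the conditions. With limma, 2 of the 10 were called higher in red than in yellow tails, against 3.85% of all entries: psmb1, a proteasome subunit gene, and phf10, a chromatin remodelling gene. The level of psmb1 averaged 3585 ± 840.5 normalized reads in red tails and 1892 ± 380.0 in yellow tails (SD, n = 3 each). Its log2 difference was 0.92 ± 0.25 (limma adjusted p = 0.041), and the call was lost in 12 of 22 alternatives. That of phf10 was 1.02 ± 0.27 (limma adjusted p = 0.041), lost in 11 of 22. Against MZCS002 females, psmb1 was also called higher in red tails (1.44 ± 0.25, limma adjusted p = 0.0070). Among all 22 nearest neighbours of the 11 matched genes, 10 were tested and none met the conditions. One of the 10 was called higher in red than in yellow tails, and none was called lower or called against MZCS002 females. Over all entries these shares were 3.85% and 3.58%, and 2.71% and 1.82% against MZCS002 females, so counts out of 10 genes do not set the neighbours apart. The called gene was mgp, matrix Gla protein, beside pde6hb, with 397 ± 192 normalized reads in red tails and 27.6 ± 10.1 in yellow tails (log2 difference 3.76 ± 0.52, limma adjusted p = 0.0015). Unlike pde6hb, mgp had 689 ± 465 in MZCS002 females.

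The locus LOC107374445 (XM_015942594) has no name in the gene table used. It had 199.7, 749 and 121 normalized reads in red tails, 2.01, 4.34 and 5.497 in yellow tails, 71.9, 62.9 and 47.6 in MZCS002 females and 14.1, 16.7 and 4.69 in GRZ-BELL females. The 4 groups did not overlap each other except for yellow tails and GRZ-BELL females, and both groups of the strain MZCS002 lay above both groups of GRZ-BELL. Red 2 was 6.17 times red 3, so the red mean of 357 ± 342 (SD, n = 3) rested largely on 1 library. On the log2 scale the red excess was 5.81 over yellow tails but 2.12 over MZCS002 females.

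The gene mdm1 (XM_015962497) encodes a centriole protein that, in mammals, binds microtubules and restrains centriole duplication. It had 72.3, 37.7 and 37.7 normalized reads in red tails, 1.00, 0 and 0 in yellow tails, 34.1, 0 and 21.7 in MZCS002 females and 0, 1.67 and 1.56 in GRZ-BELL females. MZCS002 females 1 and 3 came within reach of the red libraries, and MZCS002 female 2, the shallow library, had no read. The single yellow read, against 181 red reads, gave a ratio of means of 147 with a 95% counting interval of 24.7 to 5537.

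The gene cdca9 (XM_015946516) encodes a borealin, a subunit of the chromosomal passenger complex that guides chromosome segregation and cell division. It had 183, 296 and 265 normalized reads in red tails, 12.04, 18.2 and 13.7 in yellow tails, 178, 37.7 and 17.7 in MZCS002 females and 10.6, 18.3 and 8.60 in GRZ-BELL females. MZCS002 female 1 nearly reached red 1, and the other 2 MZCS002 females lay well below. The red mean was 16.9 times the yellow mean but 3.19 times that of MZCS002 females.

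Of 8 listed genes of the complex and the cell cycle, picked after cdca9 was seen, 6 were in the table. The group mean of log2 values was highest in red tails for 4 of the 6, incenp, cdk1, aurkb and birc5b. It was highest in MZCS002 females for birc5a and mki67. Of the 4, birc5b had only 2 reads in red tails, and aurkb lay only 0.0053 above MZCS002 females. No such share was taken over all entries, so nothing is read from this count. With limma, cdk1 (log2 difference 3.40 ± 0.57, adjusted p = 0.0047) and mki67 (2.54 ± 0.66, adjusted p = 0.035) were called higher in red than in yellow tails. The genes incenp, aurkb and birc5a were not called (limma adjusted p from 0.099 to 0.39). Against MZCS002 females, limma called none of the 5 that were tested. The calls of cdk1 and mki67 were not recomputed in the alternatives. The gene of the scaffold subunit, incenp, had 1064, 1189 and 1031 normalized reads in red tails, 178, 532 and 219.9 in yellow tails, 435, 4064 and 484 in MZCS002 females and 347, 213 and 463 in GRZ-BELL females. The proliferation marker mki67 had 1245, 1284 and 1025 in red tails, 152, 431 and 125 in yellow tails, 596, 4755 and 875 in MZCS002 females and 350.0, 301 and 644 in GRZ-BELL females. For both, the highest library of all was MZCS002 female 2, where cdca9 had 37.7, and the red libraries lay above the other 8. Of 6 other tested cdca genes none met the conditions. For red against yellow tails their median log2 difference was 1.48, and 4 of the 6 had an unadjusted p under 0.05 (24.8% of all entries). For red tails against MZCS002 females the median was 0.25, and 0 of the 6 had such a p (22.0% of all entries). One of them, cdca3, a mitotic entry gene, was called higher in red than in yellow tails (log2 difference 3.48 ± 0.70, limma adjusted p = 0.012), a call lost without red 1 or red 2 (adjusted p = 0.055 and 0.057). The share of all entries called higher in this contrast was 3.85%. The level of cdca3 was 262, 275 and 162 normalized reads in red tails. It was 73.7, 226 and 113 in MZCS002 females, which overlapped red tails, and 37.6, 36.6 and 43.0 in GRZ-BELL females. Against MZCS002 females cdca3 was not called (log2 difference 0.87 ± 0.70, limma adjusted p = 0.50). Whether the number of dividing cells had a part in the level of cdca9 was not tested.

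**Figure D2:**
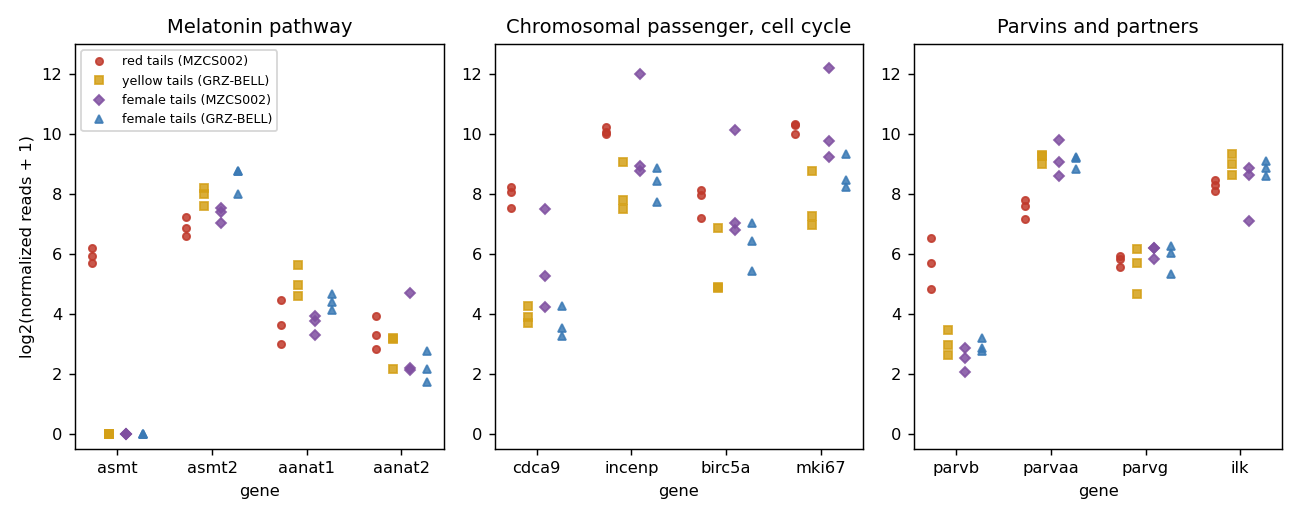
Levels of asmt, cdca9 and parvb beside genes of the same pathway or complex, as log2(normalized reads + 1) on the vertical axis, with 1 point per library and the groups side by side within each gene. Red libraries are highest for asmt, parvb and, by a narrow gap to MZCS002 female 1, cdca9, and they lie below yellow tails for asmt2 and aanat1 and below all others for parvaa.

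The 7 genes known only by an identifier had red means of 40.1 to 3679 normalized reads, with a median of 55.3. Their means ran from 0 to 392.02 in yellow tails, 0.300 to 687 in MZCS002 females and 0 to 993 in GRZ-BELL females. The most abundant, XM_015950057, had 2977, 4500.4 and 3559 normalized reads in red tails, 338, 557 and 280.4 in yellow tails, 829, 974 and 258 in MZCS002 females and 709.5, 429 and 1841 in GRZ-BELL females. Its nearest other library was GRZ-BELL female 3.

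The thresholds cut through a continuous range. The smallest red excess over another group was 2.05 for XM_015952879, 2.12 for LOC107374445 and 2.14 for XM_015950057 on the log2 scale, just inside. Just outside were c16h10orf90 with 1.98, slc14a2, a urea transporter gene, with 1.98 and an entry with only an identifier with 1.94. By the gap between libraries, cdca9 with 0.037 and mdm1 with 0.14 lay just inside. Outside, rdh10a, a retinol dehydrogenase gene, missed it by a gap of -0.059, and psmb12, a proteasome subunit gene, by one of -0.42. The yellow limit was closest for slc6a1b, whose yellow mean lay 0.94 above that of GRZ-BELL females, then mmp16b with 0.91 and gja2 with 0.65. In all, 10 entries failed only the yellow limit, and 5 failed only the gap.

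**Figure D3:**
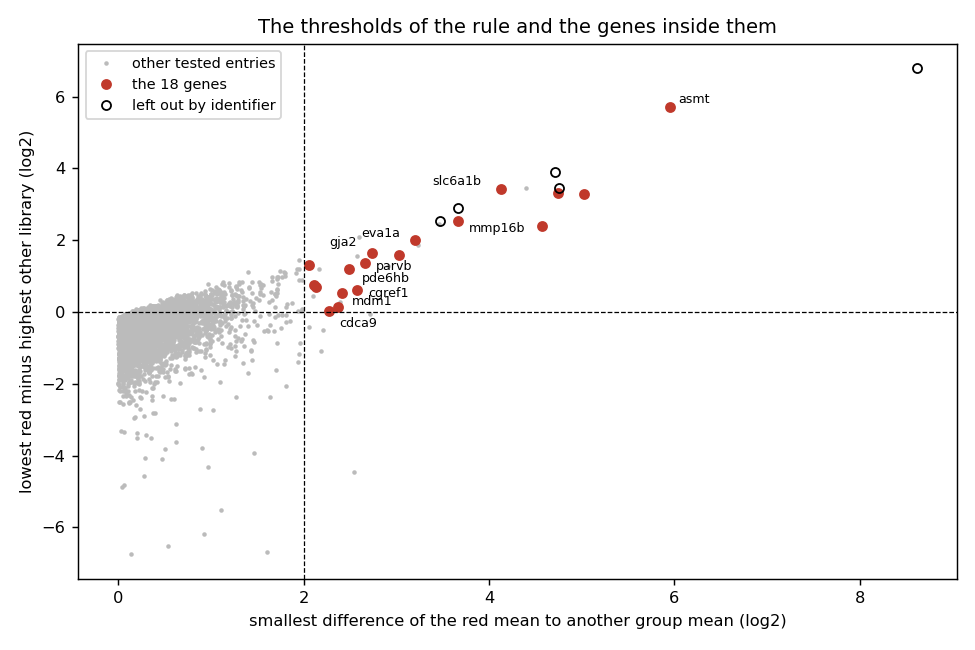
Each entry with its smallest red excess over another group mean on the horizontal axis and the lowest red minus the highest other library on the vertical axis, both in log2 units, for entries whose excess was above 0. The dashed lines mark the thresholds, filled red points the 18 genes and open circles the 5 entries set aside, and asmt stands alone at the upper right of the 18.

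Which red library was highest was not part of the choice. Among the 18 genes it was red 2 for 9, red 1 for 7 and red 3 for 2. Over all tested entries these shares were 28.8% for red 2, 35.2% for red 1 and 36.0% for red 3. The lowest red library was red 3 for 8 genes, red 1 for 7 and red 2 for 3. The lowest red value did enter the choice, and no such share was taken over all entries, so nothing is read from this count. The coefficient of variation over the red libraries had a median of 31.1% for the 18 genes, against 23.2% over all tested entries. The 18 genes were also weaker, with a median red mean of 61.5 against 206. These medians were not matched for level, so nothing is read from their difference. Without red 3 the same conditions were met by 32 entries, with 17 of the 18 among them.

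The conditions put a ceiling on both female groups but did not set which of them was higher. With limma over all 15170 entries, 264 were called between MZCS002 and GRZ-BELL females at an adjusted p under 0.05, 1.74% of those tested. None of the 18 genes was called, and 3 had an unadjusted limma p under 0.05, against 15.6% of all tested entries. On the recovered reads, edgeR called none of the 18 either. Nothing is read from these counts, because the ceiling and the low levels limit what could be called: 13 of the 18 averaged under 20 normalized reads in MZCS002 females and 15 in GRZ-BELL females, and asmt had no read in either. DESeq2 on the recovered reads called 3 of the 18, against 5.33% of all tested entries. These were mdm1 (DESeq2 adjusted p = 0.0045), cdca9 (DESeq2 adjusted p = 0.0040) and LOC107374445 (DESeq2 adjusted p = 0.012). Neither limma nor edgeR called any of the 3. The conditions used the means of both female groups, so nothing is read from this count either.

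For LOC107374445 the log2 difference between MZCS002 and GRZ-BELL females was 2.41 ± 0.64 (limma adjusted p = 0.090, edgeR adjusted p = 0.10), higher in all 3 MZCS002 females. It was the only one of the 18 genes whose female groups did not overlap. The share of all entries without such overlap was not taken, so nothing is read from this. For cdca9 the difference was 1.97 ± 0.65 (limma adjusted p = 0.17, edgeR adjusted p = 0.075). For mdm1 it was 2.29 ± 1.13 (limma adjusted p = 0.35, edgeR adjusted p = 0.060). Leaving out 1 MZCS002 female in turn, limma called 1 of the 18 genes each time. It was a gene with only an identifier without female 1, mdm1 without female 2 and cdca9 without female 3. Over all entries these fits called 248 of 15181, 360 of 15158 and 231 of 15146. With any library of another group left out, limma called none of the 18, and nothing is read from these counts.

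**Figure D4:**
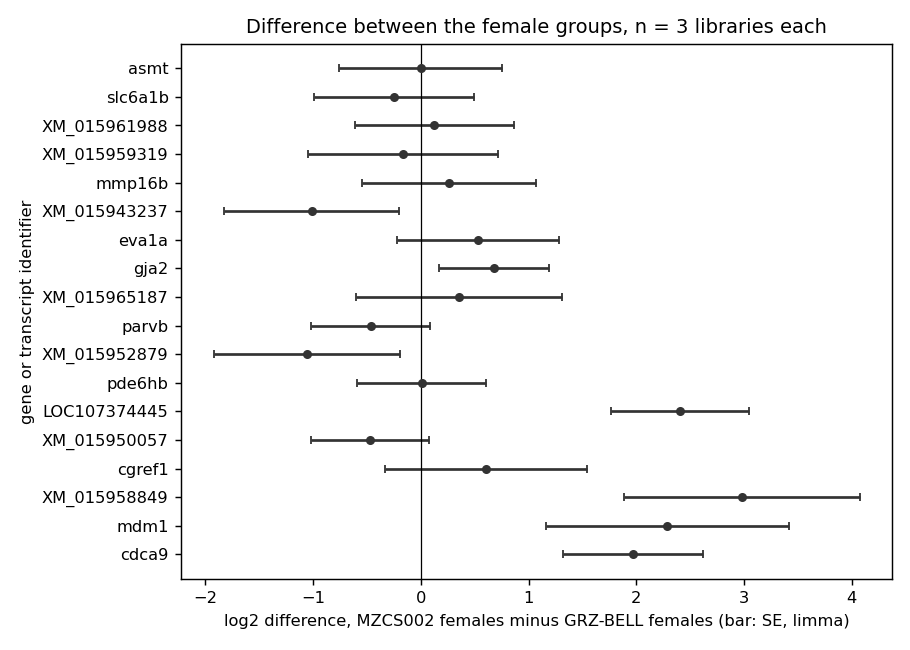
Difference between MZCS002 females and GRZ-BELL females for each of the 18 genes on the log2 scale, with bars for the standard error from limma and n = 3 libraries per group. LOC107374445, mdm1, cdca9 and 1 gene with only an identifier lie near 2 to 3, and the other 14 lie between -1.06 and 0.68.

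Genes of pigment cells and zinc transport were read from 7 lists: zinc transport, Csf1 signalling, xanthophore and neural crest factors, pteridine synthesis, carotenoid handling, melanin, and guanine and iridophores. None of the 18 genes was on a list, but of the 5 entries set aside 2 were on the zinc list, 1 on the Csf1 list and 1 on the list of crest factors. These met the conditions for red tails and are left out of the counts that follow, which therefore understate the red-high genes of those 3 lists. Of the other 63 list genes tested, limma called 3 higher and 5 lower in red than in yellow tails, where 3.85% of all tested entries were called higher and 3.58% lower. Higher were the melanosome transport genes mreg (log2 difference 1.95 ± 0.29, limma adjusted p = 0.0022) and rab32a (1.12 ± 0.25, limma adjusted p = 0.017), and ednrbb, an endothelin receptor gene (4.15 ± 0.81, limma adjusted p = 0.010). The level of ednrbb averaged 50.3 normalized reads in red tails, 1.998 in yellow tails, 67.8 in MZCS002 females and 45.3 in GRZ-BELL females. Unlike mreg and rab32a, ednrbb was not called against MZCS002 females (log2 difference 0.073 ± 0.81, limma adjusted p = 0.97). Lower were the pteridine genes aox6 (-2.99 ± 0.55) and pts (-1.23 ± 0.28), the zinc exporters slc30a1a (-4.23 ± 0.91) and slc30a2 (-3.49 ± 0.89), and the iridophore receptor kinase ltk (-1.53 ± 0.41), with limma adjusted p from 0.0074 to 0.039. Against MZCS002 females none of these 5 was called. There the log2 difference was 2.04 for aox6, 1.06 for pts, -2.89 for slc30a1a, -0.45 for slc30a2 and -0.22 for ltk. The level of slc30a2 averaged 2.13 normalized reads in red tails, 3.77 in MZCS002 females, 24.98 in yellow tails and 35.9 in GRZ-BELL females. Of the 8 calls for red against yellow tails, only those of mreg and aox6 held in all 22 alternatives. Leaving out red 1 ended the other 6, and leaving out yellow 1 ended the same ones except that of pts.

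Against MZCS002 females, 21 of the 63 list genes were called higher in red tails and 1 lower, where 2.71% of all tested entries were called higher and 1.82% lower. The median log2 difference of the 63 was 0.63, against 0.014 over all tested entries. For red against yellow tails their median was -0.31, against -0.011 over all tested entries. By list, the calls were 7 of 13 melanin genes, 4 of 8 guanine and iridophore genes, 4 of 10 xanthophore and neural crest factors, 3 of 11 pteridine genes, 2 of 7 carotenoid genes higher and 1 lower, 2 of 3 Csf1 genes and 0 of 12 zinc genes. One gene, tfec, a pigment cell transcription factor, counts in 2 lists. Among the 12 zinc genes, 3 had an unadjusted p under 0.05, against 22.0% of all entries. The melanin genes were tyr (log2 difference 5.07), rab38b (4.51), mreg (3.99), mlana (3.33), trpm1b (3.32), tyrp1b (2.14) and rab32a (1.64). The guanine and iridophore genes were fhl2a (7.75), pnp5a (6.04), pnp4a (5.76) and tfec (2.39), and the other crest factors mitfa (2.48), pax7a (2.16) and foxd3 (1.89). The pteridine genes were gch2 (8.03), xdh (3.30) and atic (1.38), the carotenoid genes apoda.1 and plin6 (3.67) higher and lpla (-1.87) lower, and the Csf1 genes csf1ra (3.52) and csf1b (2.08). Among the genes called higher, fhl2a, pnp4a, apoda.1, csf1b, pax7a, foxd3, tfec and trpm1b had higher means in yellow than in red tails. The others had higher means in red tails, where limma called only mreg and rab32a against yellow tails. For apoda.1, 10670 reads in red tails stood against 2 in MZCS002 females, a ratio of means of 2109 with a 95% counting interval of 1148 to 34255. Calls of atic, foxd3, lpla, mitfa, plin6 and xdh were lost without red 2. Of 22 alternatives, that of foxd3 was lost in 15 (adjusted p up to 0.21), that of mitfa in 4 (up to 0.15), those of atic and xdh in 3 each, that of lpla in 2 and that of plin6 in 1.

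Markers of other cell types contained none of the 18 genes, and their part in the levels above was not tested. Summed over each list, muscle markers (6 in the table) had 29.4 to 54.2 normalized reads in red tails, 39.9 to 109 in yellow tails, 84.9 to 402 in MZCS002 females and 62.5 to 123.3 in GRZ-BELL females. Red blood cell markers (2 in the table) had 57.0 to 146 in red tails, 373 to 1039 in yellow tails, 31.4 to 63.9 in MZCS002 females and 55.8 to 307 in GRZ-BELL females. Nerve and glia markers (6 in the table) had 217 to 401 in red tails, 267 to 435 in yellow tails, 251 to 494 in MZCS002 females and 427 to 790 in GRZ-BELL females, and vessel markers (2 in the table) 79.9 to 102 in red tails, 64.6 to 87.7 in yellow tails, 152 to 190 in MZCS002 females and 48.2 to 122 in GRZ-BELL females. The red range overlapped that of every other group for immune, epidermal, bone and gonad markers, and no marker in the table was at 0 in all libraries.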

How the data were processed

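The authors deposited normalized signal for each transcript entry. The submitters' processing notes name Trimmomatic, STAR, featureCounts and DESeq2, and the values are whole read counts scaled by 1 factor in each library. No source used here gives versions, genome build or strand setting. Dividing each library by its smallest step recovered whole reads for 100% of nonzero values, within 0.01. Gene names were taken from RefSeq's gene table (assembly NfurGRZ-RIMD1), which matched 14145 of 20788 entries, 10617 with a symbol. It served for names and gene order only, and no coordinates are given.

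Samples were grouped by title. The 18 genes were chosen on log2(value + 1) by the stated conditions. Genes and lists were chosen with earlier results of these data known. Differences were fitted with limma 3.58.1 (R 4.3.3, eBayes with trend) on log2(value + 1) over 15170 entries with a mean of at least 10, with all 12 libraries in 1 fit and the group as its term. Calls used a Benjamini-Hochberg adjusted p under 0.05 over all entries. This scale understates changes of weak genes. Fitted errors of genes at 0 in a group rest on the shared trend. On the recovered reads, edgeR 4.0.16 called 283 genes between the female groups, 1194 for red against yellow tails and 696 for red tails against MZCS002 females, and DESeq2 1.42.0 called 808, 2350 and 1757. The script was tested on simulated data. Bounds against groups without reads used 3 reads per library. Every gene with a symbol is named and given in full, and called list genes, family members and neighbours are named. Replicates differed by more than sampling noise.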

Additional observations from a re-analysis of the deposited data

How the results depend on the processing

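The number of genes meeting the conditions, without the 5 entries set aside, was 18. It was 15 with a pseudocount of 5 and 18 with one of 0.5 (16 shared), 28 with no filter, 5 with a mean of at least 50, 26 with equal library totals and 18 with TMM scaling. It ran from 15 to 32 when 1 library was left out, the highest without red 3. Called genes between the female groups numbered 264, but 145 at a mean of at least 50, 808 with DESeq2 and 74 in a fit of only the 2 groups, and 110 to 360 with 1 library left out. Of the 18 genes none was called there, against 3 with DESeq2 and 0 to 1 with 1 library left out. For red against yellow tails, 1127 were called, 2350 with DESeq2, 1767 in a fit of only the 2 groups, and 341 to 2620 with 1 library left out, the highest without MZCS002 female 2. For red tails against MZCS002 females, 687 were called, 1757 with DESeq2, 112 in a fit of only the 2 groups, 347 with the replicate block, and 170 to 1166 with 1 library left out. Where a group is left with 2 libraries, its spread is taken from the shared fit. With equal library totals the median difference of all entries moved to 0.26 for red tails against MZCS002 females, and the split was 639 higher and 131 lower, against 411 and 276. For red against yellow tails it was 673 and 366, against 584 and 543, and for MZCS002 against GRZ-BELL females, where the median moved to -0.23, 87 and 179, against 124 and 140. Of 38 calls for single genes that were recomputed, 20 held in every alternative and none reversed, and 737 of 831 recomputed calls held. The cause of these shifts was not tested.

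Replicate numbers did not pair the samples: correlations of same-numbered deviations ran from -0.31 to 0.17 over 4 pairs of groups, and at best 2 of 3 libraries were closest to their own number. The replicate block gave 210 genes between the female groups, 0 of the 18 called, and 835 for red against yellow tails. The planned search for promoter motifs, with its shorter window, was not run because no sequences were used here. Limits of depth bear on most of the 18 genes, since 11 averaged under 100 normalized reads in red tails.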
